A study of Mus musculus with 13 samples.

Results

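Rpl3 and Rpl3l are 2 of the 21868 genes in the table of normalized counts from mouse gastrocnemius muscle, and their rows were found by symbol. The 2 genes were chosen with earlier results of these data known, so their p-values are not those of genes picked blind to the data. The muscle came from 13 obese male mice, C57BL/6N by the study's account of its RNA-seq and C57BL/6 in the labels, that arrived at 7 weeks of age, received a diet with 60 kcal% fat for 15 to 17 weeks and were then moved to standard chow. For the next 3 weeks, 5 mice received vehicle (phosphate-buffered saline) with placebo, 5 received intraperitoneal semaglutide at 30 nM/kg/day with placebo, and 3 received the same semaglutide and drank water containing a ketone ester (0.114 g/mL). Semaglutide is a GLP-1 receptor agonist used to lower body weight, and the study asked whether the ketone ester affects the muscle loss that accompanies it. No group received the ketone ester alone. Each library is 1 numbered mouse, all 13 libraries carry 1 batch label, and between 15319471 and 23498162 reads per library fell on genes. On the first principal component of the 12303 genes with a mean normalized count of at least 10, which held 38.1% of the variance, semaglutide-treated mouse 13 scored -9.12, while the other semaglutide-treated mice scored 31.8 to 52.5 and the vehicle-treated mice -24.5 to -12.9. Results are therefore also given without mouse 13.

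The Rpl3 protein lies in the large ribosomal subunit and reaches toward the site where peptide bonds form. Rpl3l is its paralog, made in skeletal muscle and heart, and a ribosome carries the product of 1 gene or the other at the same position. In adult muscle Rpl3l is the main form, and Rpl3l RNA is known to fall and Rpl3 RNA to rise when muscle is made to grow by overload or regenerates after injury. In bulk muscle, fewer cells of a type and less RNA per cell cannot be told apart.

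Because the paralogs are related in sequence, how well reads can tell them apart was examined first. In the GRCm38 annotation Rpl3 (ENSMUSG00000060036) spans chr15:80077791-80091868 on the minus strand and Rpl3l (ENSMUSG00000002500) spans chr17:24727820-24736143 on the plus strand. Their main transcripts, of 1351 and 1375 bases, each have 10 exons and encode 403 and 407 amino acids, and 9 of the 10 coding exons have the same length in both genes. Of 1167 aligned coding bases, 868 (74.4%) were identical, and the longest identical run was 22 bases, well under the 59-base read. Coding exon 6 was the most alike of those longer than 3 bases, with 80.7% of bases identical, and coding exon 7 the least alike, with 64.7%. The first stretch below lies in coding exon 2, at coding bases 121 to 179, and is a window of read length in which the genes differ least. It is shown because a read from it is among the hardest to assign between these 2 genes, and capitals mark the 8 bases that differ (Rpl3 at chr15:80082407-80082465, minus strand, and Rpl3l at chr17:24728434-24728492, plus strand).
Rpl3: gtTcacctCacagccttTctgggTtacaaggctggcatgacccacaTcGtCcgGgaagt
Rpl3l: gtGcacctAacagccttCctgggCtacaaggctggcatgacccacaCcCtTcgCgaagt
The second stretch lies in coding exon 7, at coding bases 863 to 921, and differs most among the windows that lie inside a single exon. It is shown as the contrast to the first, with the 23 bases that differ in capitals (Rpl3 at chr15:80078737-80078795, minus strand, and Rpl3l at chr17:24733930-24733988, plus strand).
Rpl3: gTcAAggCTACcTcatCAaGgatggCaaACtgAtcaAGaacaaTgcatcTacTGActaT
Rpl3l: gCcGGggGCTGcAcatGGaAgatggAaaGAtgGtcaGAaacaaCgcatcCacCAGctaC

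Over all 1109 windows of 59 aligned coding bases, the genes differed at 8 to 25 bases, with a median of 15. No 59-base word of either transcript occurred in the other, even with 2 mismatches allowed. Rpl3l shared none of its 1317 words with any other transcript of the GENCODE annotation. Rpl3 was different, since 84.7% of its 1293 words also occurred exactly in 10 other genes, all of them pseudogenes, and 92.7% occurred in 31 pseudogenes when 2 mismatches were allowed. The leading one, Rpl3-ps1, held 89.1% of the Rpl3 words at that tolerance. None of the 31 pseudogenes has a row in the table, and how reads with several matches were treated is not given in the sources used here. The level of Rpl3 is therefore uncertain, and the size of the Rpl3l to Rpl3 ratio with it. Rpl3 also hosts small RNA genes on its own strand, Snord83b and Snord43 among them, which have no row in the table. Its annotated span overlaps the start of Syngr1 (80091334) on the opposite strand. The main Rpl3 transcript lies outside that overlap, with its start codon at 80083326 and 80 bases before it. Whether counting used strand is not stated either.

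**Figure D1:**
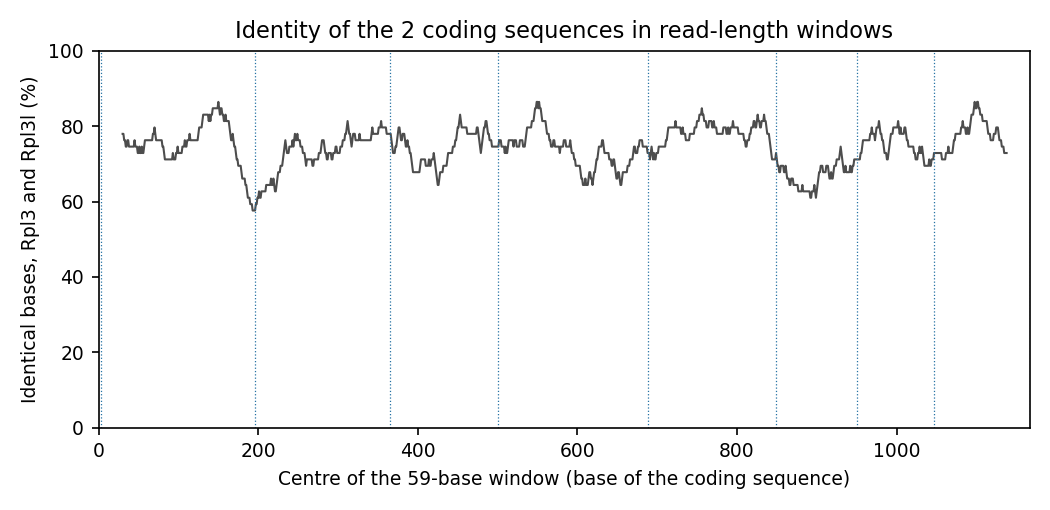
Identity of the Rpl3 and Rpl3l coding sequences. The line gives the percentage of identical bases in each 59-base window against the window's centre along the coding sequence, and dotted lines mark ends of coding exons. Identity stays short of 100% in every window, with between 8 and 25 differing bases in each.

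Vehicle-treated muscle had far more Rpl3l than Rpl3 RNA. Rpl3l normalized counts were 7217, 7029, 7054, 6981 and 7098 in vehicle-treated mice 1 to 5, with a mean of 7076 ± 89.5 (SD, n = 5). The spread of these 5 values was 1.27% of the mean, beside the 1.29% that counting error alone gives at 5701 to 6307 reads per mouse. Rpl3 normalized counts in the same mice were 108, 141, 134, 177 and 169, with a mean of 146 ± 28.1 (SD, n = 5). The 94 to 160 reads behind them give a counting error of 9.12%, and the observed spread of these 5 values was 19.3%. Per kilobase of transcript, the vehicle means were 108 normalized counts for Rpl3 and 5146 for Rpl3l.

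To examine what semaglutide changed, semaglutide-treated mice were compared with vehicle-treated mice. Rpl3 was higher in each semaglutide-treated mouse than in any vehicle-treated mouse, and Rpl3l was lower in each of them. For this and the later comparisons, the share of all genes tested that separate the groups fully is not given here. Rpl3 normalized counts were 355, 461, 251, 397 and 418 in mice 13 to 17, a mean of 376 ± 79.8 (SD, n = 5), and rested on 226 to 560 reads. In limma this was a log2 difference of 1.36 (SE 0.19, adjusted p = 0.000253), a 2.56-fold rise with a 95% interval of 1.93 to 3.39. Of all 12303 genes tested, 12.5% were called higher in this comparison and 13.9% lower. Rpl3 had the 67th highest log2 difference among them.

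Rpl3l moved the other way. Its normalized counts were 6553, 5316, 5585, 3765 and 4663 in mice 13 to 17, a mean of 5176 ± 1041 (SD, n = 5). The log2 difference was -0.48 (SE 0.12, limma adjusted p = 0.0101), which leaves 0.719 of the vehicle level with a 95% interval of 0.603 to 0.858. Among all 12303 genes tested this was the 1639th lowest log2 difference. The spread among the semaglutide-treated mice was 20.1% of their mean, against 1.40% from counting error and 1.27% observed in vehicle-treated mice. Mouse 13, the one near the control libraries on the first component, had the highest Rpl3l of its group, and mouse 16 had the lowest. Mouse 16 also had the highest summed count of 4 adipocyte markers (7738, against 125 to 1047 in the other semaglutide-treated mice and 459 to 1962 in vehicle-treated mice), and the part of fat tissue in its value was not tested. Without mouse 13 the log2 differences were 1.37 for Rpl3 and -0.57 for Rpl3l, and without mouse 16 they were 1.33 and -0.37, with adjusted p between 0.00012 and 0.0115 in these 4 limma fits. With the columns rescaled to equal totals, which raised the median gene by 0.17, the log2 difference of Rpl3l was -0.30 (adjusted p = 0.0178) and still lay below that median.

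To examine whether the ketone ester altered this pattern, semaglutide + ketone ester-treated mice were compared with mice on semaglutide alone. Rpl3 was lower and Rpl3l higher with the ketone ester, without overlap between the groups for either gene, though other genes may separate them too. Rpl3 normalized counts were 182, 165 and 107 in mice 19, 21 and 22, a mean of 152 ± 39.5 (SD, n = 3), from 89 to 150 reads. The log2 difference was -1.31 (SE 0.22, limma adjusted p = 0.00145), or 0.402 of the level on semaglutide alone with a 95% interval of 0.291 to 0.556. Rpl3l normalized counts were 7298, 7940 and 8622, a mean of 7953 ± 662 (SD, n = 3). Its log2 difference was 0.64 (SE 0.14, limma adjusted p = 0.00572), a 1.56-fold rise with a 95% interval of 1.27 to 1.91. In this comparison 10.0% of the genes tested were called higher and 10.7% lower. Both this comparison and the previous one use the same 5 semaglutide-treated mice, so their differences are not independent of each other. Without mouse 13, the log2 differences were -1.33 for Rpl3 and 0.73 for Rpl3l, and with equal totals, which lowered the median gene by 0.24, that of Rpl3l was 0.40 (adjusted p = 0.00831).

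Against vehicle, the combined treatment left neither gene called. For Rpl3 the mice of the 2 groups overlapped, and the log2 difference was 0.04 (limma adjusted p = 0.978) with a 95% interval of -0.42 to 0.51. For Rpl3l each of the 3 values with the ketone ester exceeded the highest vehicle value, 7298 against 7217 at the closest, yet the log2 difference was 0.17 (limma adjusted p = 0.763) with an interval of -0.13 to 0.46. Few genes were called at all in this comparison, 0.0975% higher and 0.268% lower. These intervals do not show that the groups were alike.

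**Figure D2:**
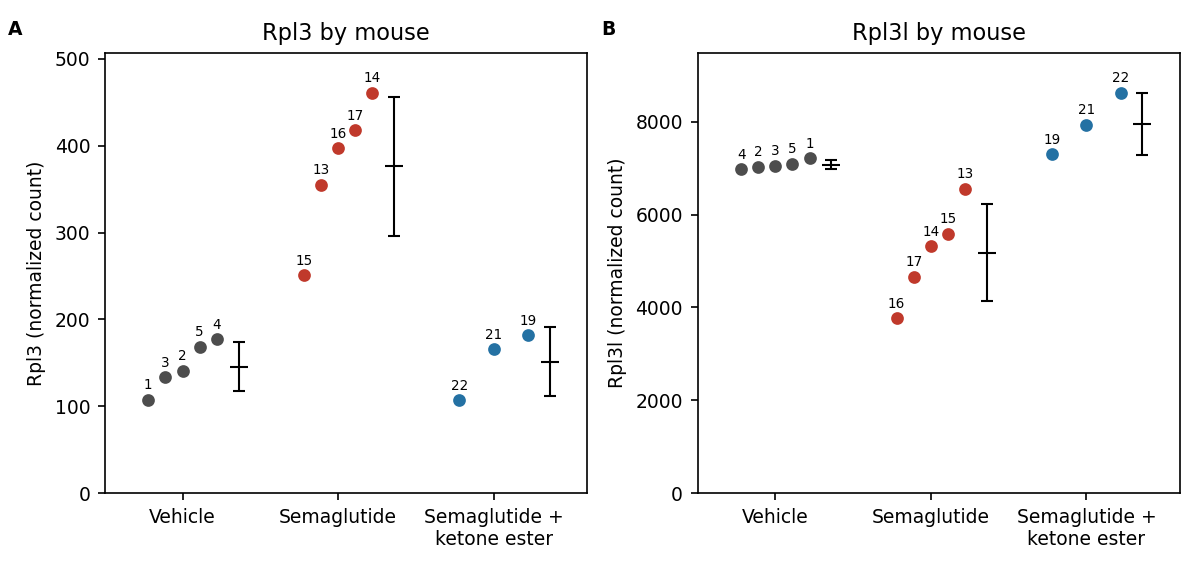
Normalized counts of Rpl3 (A) and Rpl3l (B) in each mouse. Points are mice, numbered and sorted by value within a group, bars beside them give the mean ± SD, and axes start at 0. All 5 semaglutide-treated mice lie above the other 8 for Rpl3 and below them for Rpl3l.

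The Rpl3l to Rpl3 ratio, taken within each mouse, does not depend on how the columns were scaled. Vehicle-treated mice had 67.1, 49.9, 52.8, 39.4 and 42.0 normalized counts of Rpl3l for each count of Rpl3, a mean of 50.2 ± 10.9 (SD, n = 5). Semaglutide-treated mice had 18.5, 11.5, 22.2, 9.48 and 11.2, a mean of 14.6 ± 5.50 (SD, n = 5). Mice given the ketone ester as well had 40.1, 48.0 and 80.6, a mean of 56.2 ± 21.5 (SD, n = 3). Each semaglutide-treated mouse thus fell below every mouse of the other groups, and the highest of the 5 was mouse 15 rather than mouse 13. On the log2 scale the ratio changed by -1.84 from vehicle to semaglutide (two-sided exact permutation p = 0.0079, the smallest that 5 against 5 mice can give). It differed by 1.96 between the combined treatment and semaglutide (exact permutation p = 0.018, the smallest for 3 against 5) and by 0.12 between the combined treatment and vehicle (exact permutation p = 0.732). Adjusted over the 9 exact tests made, the first and second p-values were both 0.0536 and the third 0.732, so that none of these 3 passed a threshold of 0.05 after adjustment. Without mouse 13 the log2 differences of the ratio under semaglutide and with the ketone ester were -1.94 and 2.06.

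Expressed as a share, Rpl3 gave 1.47% to 2.48% of the reads on both genes in vehicle-treated mice, 4.30% to 9.54% in semaglutide-treated mice and 1.23% to 2.44% with the ketone ester. The 95% Wilson interval of the lowest semaglutide-treated mouse (mouse 15, 3.79% to 4.88%) did not reach that of the highest vehicle-treated mouse (mouse 4, 2.13% to 2.89%), counting error alone considered. As counted, the gain in Rpl3 counts was smaller than the loss of Rpl3l counts. The level of Rpl3 is uncertain, since most of its words also occur in pseudogenes. The shares, the sums and this comparison of gain and loss are uncertain with it. The sum of both genes was 7222 ± 71.4 (SD, n = 5) normalized counts with vehicle, 5553 ± 1015 (SD, n = 5) on semaglutide and 8105 ± 624 (SD, n = 3) on the combination.

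**Figure D3:**
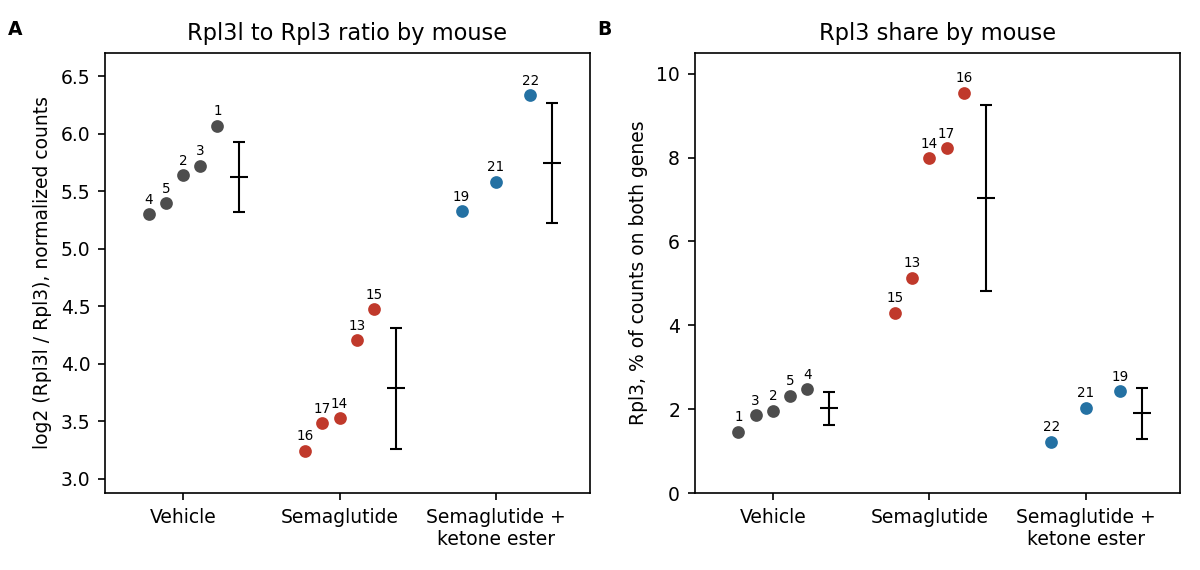
Balance of the paralogs in each mouse, as the log2 ratio of Rpl3l to Rpl3 (A) and as the Rpl3 percentage of the counts on both (B). Points are numbered mice and bars give the mean ± SD. The 5 semaglutide-treated mice are lowest in A and highest in B, with Rpl3 shares of 4.30% to 9.54% against at most 2.48% elsewhere.

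Rpl3 is 1 of 79 cytosolic ribosomal protein genes examined, and the others moved in the same direction. Under semaglutide all 78 others had log2 differences above 0 and 73 were called higher, with a median of 0.70 against -0.0029 over all genes tested. Rpl3 had the largest log2 difference of the 79 in this fit, ahead of Rpl12, a protein near the factor-binding stalk, at 1.13 (SE 0.18, limma adjusted p = 0.000587). The smallest differences, neither of them called, were those of Rps13 (0.26) and of Rpl5, which carries 5S ribosomal RNA (0.14). With the ketone ester all 78 others lay below 0 against semaglutide and 64 were called lower, with a median of -0.50. Rpl3 at -1.31 was below all but Rps27 (-1.59). Rps27 had few counts, with means of 15.1 with vehicle, 33.1 on semaglutide and 11.3 on the combination. Against vehicle, 70 of the 78 lay above 0 with a median of 0.18, and 1 was called higher, the stalk protein gene Rplp1 (0.38, limma adjusted p = 0.0423). Rps27 and Rplp1 were named after their values were seen. Words shared with pseudogenes were searched for Rpl3 and Rpl3l only. The levels of the 78 others, and the place of Rpl3 among them, may therefore be uncertain in the same way.

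Whether Rpl3 differed from its fellow subunits was tested within each mouse, as log2 Rpl3 minus the mean log2 level of the 78 others. In vehicle-treated mice 1 to 5 this was -2.27, -1.86, -1.87, -1.39 and -1.57, and in semaglutide-treated mice 13 to 17 it was -1.08, -0.89, -1.77, -0.87 and -1.06. Mouse 15 thus lay inside the vehicle range, and the other 4 semaglutide-treated mice lay above it. The means differed by 0.66 (two-sided exact permutation p = 0.0238, adjusted p = 0.0536 over the 9 tests). Without mouse 13 the difference was 0.64. With the ketone ester the values were -1.66, -1.74 and -2.38, and their mean differed by -0.79 from that on semaglutide (exact permutation p = 0.0536, adjusted p = 0.0964) and by -0.13 from vehicle (exact permutation p = 0.661, adjusted p = 0.732). A larger change of Rpl3 than of the other subunit genes was therefore not established at the adjusted threshold.

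**Figure D4:**
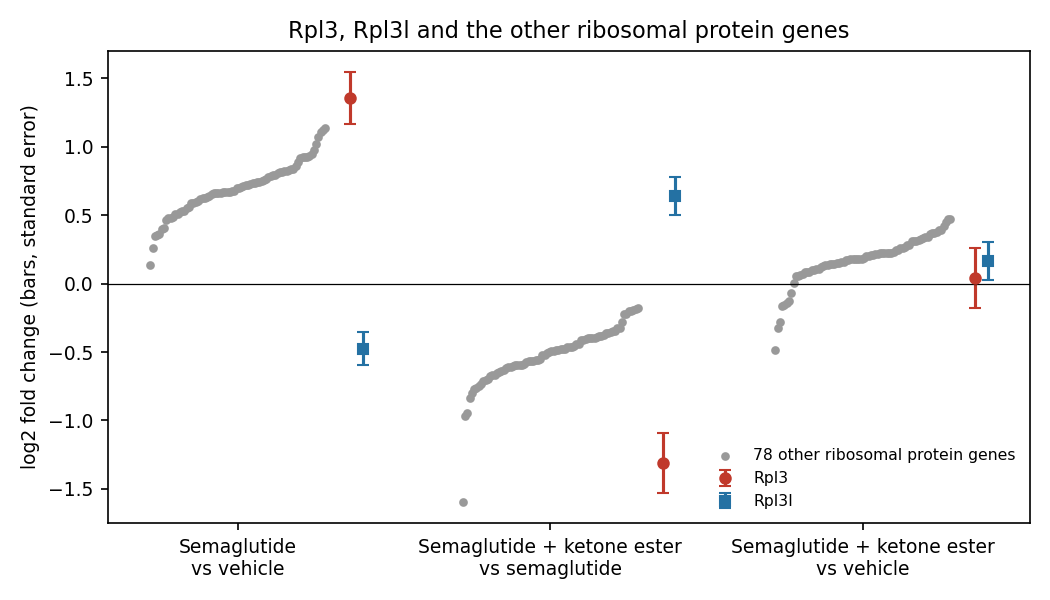
Log2 fold changes of Rpl3 (circles), Rpl3l (squares) and the 78 other cytosolic ribosomal protein genes (grey, sorted) in the 3 comparisons, on the log2(normalized count + 1) scale. Bars on the members are standard errors. Under semaglutide Rpl3 (1.36) lies above all grey points and Rpl3l (-0.48) below all of them.

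Rpl3l was next set against genes made by fast muscle fibres, the main fibres of this muscle. Of 12 such genes, 1 was called higher and 2 lower under semaglutide, shares near the 12.5% and 13.9% over all genes tested, and the median log2 difference was -0.28. With the ketone ester 6 of the 12 rose against semaglutide, where 10.0% of all genes did, and the median was 0.48. The called genes under semaglutide were Actn3, a Z-disc protein (0.74, limma adjusted p = 0.00668), Pvalb, the calcium buffer parvalbumin (-1.36, adjusted p = 0.00496), and Tnnc2, fast troponin C (-0.59, adjusted p = 0.0333). Myh4, the myosin heavy chain of the fastest fibres, had a lower estimate than Tnnc2 but was not called (-0.60, adjusted p = 0.0943), and Atp2a1, the fast-fibre calcium pump, stood second from the top (0.23, adjusted p = 0.403). Rpl3l at -0.48 lay within the range of the 12 genes.

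Within each mouse, log2 Rpl3l minus the mean log2 level of these 12 genes was -4.94, -5.07, -4.97, -4.83 and -4.84 in vehicle-treated mice and -5.07, -5.06, -5.15, -5.18 and -5.30 in semaglutide-treated mice. The mean differed by -0.22 (two-sided exact permutation p = 0.0238, adjusted p = 0.0536), with overlap at vehicle-treated mouse 2, and was -0.24 without mouse 13. With the ketone ester the values were -5.09, -5.17 and -5.04, a difference of 0.05 from semaglutide (exact permutation p = 0.5, adjusted p = 0.643) and of -0.17 from vehicle (exact permutation p = 0.0714, adjusted p = 0.107). With the median of the 12 genes in place of their mean, the first difference was -0.81 (exact permutation adjusted p = 0.0357) and the second 0.63 (exact permutation adjusted p = 0.0536). That median was taken over levels within each mouse, so the genes at its middle can change. By group mean they were Tnni2 and Actn3 with vehicle, and Mybpc2 and Tnnt3 on semaglutide. The median thus did not set Rpl3l against the same genes in both groups, and no conclusion is drawn from it.

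**Figure D5:**
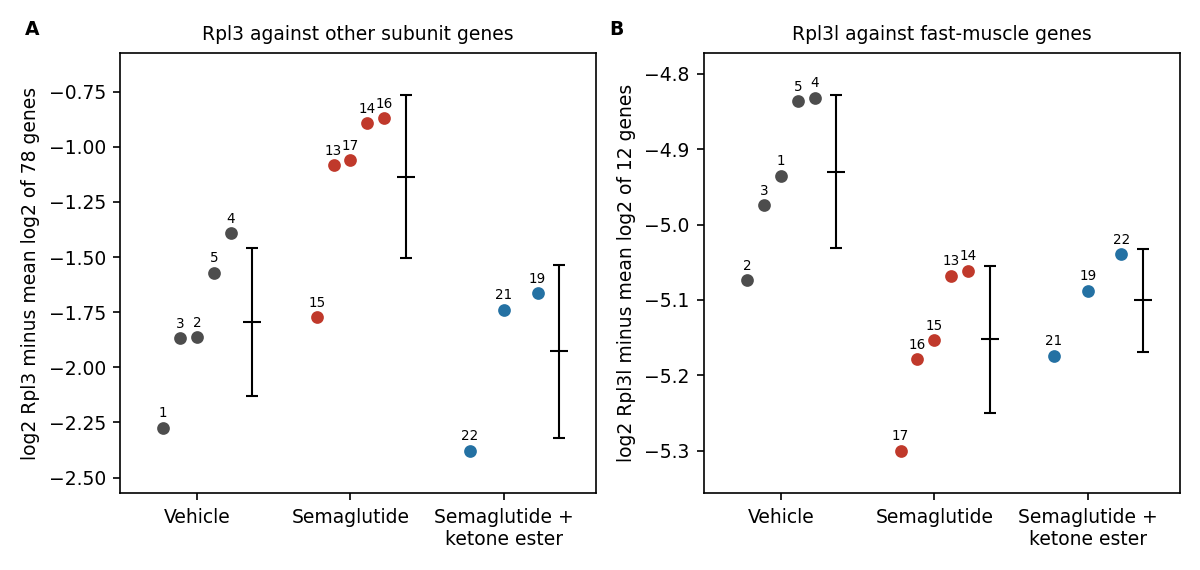
Each member against its reference genes in every mouse. A gives log2 Rpl3 minus the mean log2 of 78 other ribosomal protein genes and B gives log2 Rpl3l minus the mean log2 of 12 fast-muscle genes, with numbered mice as points and mean ± SD as bars. Mouse 15 at -1.77 stands below the other semaglutide-treated mice in A, and the axes do not start at 0.

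Other ribosomal protein paralogs were examined next. Of 7 besides Rpl3l, 4 passed the filter, and none of the 4 was called lower under semaglutide, where 13.9% of all genes tested were. So few genes cannot show whether the fall of Rpl3l is particular to it. Called higher, as 12.5% of all genes tested were, were 2 of the 4. These were Rpl22l1, the paralog of Rpl22 (0.71, limma adjusted p = 0.000503), and Rpl36al, the paralog of Rpl36a (0.40, adjusted p = 0.00491). Rps27l (0.14, adjusted p = 0.248) and Rpl7l1 (-0.05, adjusted p = 0.782) were not called. Rpl10l, known from testis, was at 0 in all 13 mice, and Rpl39l, known from germ cells, had no mean above 1.61 in any group. The log2 ratio of a paralog to its partner went from -1.99 ± 0.14 to -2.75 ± 0.38 for Rpl7l1 to Rpl7, from 5.44 ± 0.43 to 4.48 ± 0.32 for Rps27l to Rps27, from 5.19 ± 0.47 to 4.93 ± 0.46 for Rpl36al to Rpl36a and from -2.92 ± 0.19 to -2.81 ± 0.29 for Rpl22l1 to Rpl22 in vehicle-treated and semaglutide-treated mice (SD, n = 5 each, no test made). The pairs thus did not all shift the same way, and Rpl22l1 to Rpl22 stood at -2.29 ± 0.37 with the ketone ester (SD, n = 3). Rps27 and Rpl36a had few counts, with vehicle means of 15.1 and 26.6 and semaglutide means of 33.1 and 43.9. Whether these pairs share words with pseudogenes was not examined, so the size of their ratios is uncertain.

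Genes that act on Rpl3 itself were partly higher under semaglutide. Grwd1, the chaperone that carries newly made Rpl3, rose by 0.44 on the log2 scale (limma adjusted p = 0.00456) and was lower with the ketone ester against semaglutide (-0.39, adjusted p = 0.0226). Npm1, the nucleolar chaperone nucleophosmin, rose by 0.78 (adjusted p = 0.023) and was likewise lower with the ketone ester (-0.87, adjusted p = 0.033), though its value in mouse 13 was 554 normalized counts, under the vehicle range of 622 to 704. Khsrp, an RNA-binding protein linked to splicing of Rpl3 RNA, rose by 0.32 (adjusted p = 0.0192), with -0.19 (adjusted p = 0.228) for the ketone ester against semaglutide. Hnrnph1, another splicing factor for Rpl3, was not called (0.10, adjusted p = 0.602), nor was Mettl18, which methylates a histidine of Rpl3 (-0.23, adjusted p = 0.378). In all, 3 of these 5 genes were called higher under semaglutide (12.5% of all genes tested) and 2 lower with the ketone ester (10.7% of all genes tested).

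Translation elongation factors include another pair in which muscle uses its own form. Eef1a1, the form of most tissues, rose by 0.60 on the log2 scale under semaglutide (limma adjusted p = 0.0105), while Eef1a2, the form of adult muscle, differed by 0.08 (adjusted p = 0.58). The log2 ratio of Eef1a2 to Eef1a1 was 2.86 ± 0.14 in the vehicle group (SD, n = 5), 2.34 ± 0.51 on semaglutide (SD, n = 5) and 2.95 ± 0.12 with the ketone ester added (SD, n = 3). Eef2, which moves the ribosome along the RNA, rose by 0.64 under semaglutide (adjusted p = 0.0273) and was lower with the ketone ester (-0.73, adjusted p = 0.035). The third of the 8 elongation genes called higher under semaglutide was Eef1b2, an exchange factor (0.72, adjusted p = 5.95e-05), which was also the other 1 of 2 called lower with the ketone ester (-0.42, adjusted p = 0.00753). Over all genes tested, the shares called were 12.5% and 10.7%.

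Since Rpl3l and Rpl3 are known to trade places in growing muscle, 10 genes known from muscle growth and regrowth were also examined. Under semaglutide the genes called higher were Ankrd1 (1.44), which responds to stretch, Nrap (0.90), which acts in myofibril assembly, and Myc (1.16), a regulator of ribosome genes, on the log2 scale. The called genes that fell were Ky (-1.28), needed for muscle growth under load, and the developmental myosins Myh8 (-0.38) and Myh3 (-0.35), and the highest limma adjusted p of these 6 was 0.0464. With the ketone ester against semaglutide, Ky (2.21), Myh8 (0.78) and Myh3 (0.66) were called higher, and Xirp1 (-1.56), Myc (-1.53) and Nrap (-1.30) were called lower. Ankrd2, Csrp3 and Igf1 were called in neither comparison. In each comparison 3 of the 10 were called higher and 3 lower. Over all genes tested, 12.5% were called higher and 13.9% lower under semaglutide, and 10.0% and 10.7% with the ketone ester. The list as a whole did not move in 1 direction alongside Rpl3, with medians of 0.40 and -1.10 in the 2 comparisons.

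The libraries carried the markers of their labelled tissue. Fast-muscle markers summed to at least 1101030 normalized counts in every mouse, and the 3 heart markers, heart being the other tissue with Rpl3l, summed to 23.3 to 93.8. Nppa was at most 1.16 and Tnni3 at most 4.82 in any mouse, while Myh6 had between 22.2 and 92.7 normalized counts, with group means of 56.2, 52.3 and 71.2 in the order vehicle, semaglutide and combination. Summed fast-muscle markers were lowest in mouse 16, as Rpl3l was, and highest among semaglutide-treated mice in mouse 13 (2008467), as Rpl3l was. Summed counts of 3 erythroid markers were 1001 to 1723 in vehicle-treated mice, 2326, 37.2, 1114, 36.9 and 167 in semaglutide-treated mice 13 to 17, and 2077, 3410 and 4178 with the ketone ester.

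Some markers of connective tissue and slow fibres also moved in the same direction as Rpl3l. Col1a1, a fibroblast collagen, had log2 differences of -3.02 under semaglutide and 3.03 with the ketone ester against semaglutide, and Tnmd, a tendon marker, -3.43 and 3.67, all called in limma. Pdgfra, another fibroblast marker (-0.62), and Myl3, a slow-fibre myosin light chain (-1.32), were called lower under semaglutide, with 0.33 and 1.05 with the ketone ester, not called. Scx, the other tendon marker, went the other way. It had 0.29 under semaglutide (limma adjusted p = 0.457) and -1.07 with the ketone ester (adjusted p = 0.0247). The fibroblast marker Dcn and the slow-fibre markers Myh7, Tnnt1 and Tnni1 were called in neither comparison. The summed ranges in the order vehicle, semaglutide and combination were 4041 to 9595, 4349 to 5619 and 5528 to 8821 for 3 fibroblast markers, 92.7 to 226, 59.7 to 205 and 138 to 168 for 2 tendon markers, and 5388 to 24868, 4970 to 14013 and 7964 to 16828 for 4 slow-fibre markers. The part of these cell types in the differences of Rpl3 and Rpl3l was not tested.

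The genes whose levels ran closest to each member over the 13 mice were listed by Pearson's r of log2 values, which here includes the differences between groups. Nearest to Rpl3 among 8504 genes outside the ribosomal protein list were Dpy19l3 (0.946), Kpnb1, a nuclear import receptor (0.934), Xbp1, a transcription factor of the unfolded protein response (0.933), Ddost, a subunit of the oligosaccharyltransferase (0.933), and Gpr108 (0.926). Among the most opposed were Vamp8, a vesicle fusion protein (-0.964), Pdpr (-0.929), Aagab (-0.924) and the phospholipase Pla2g16 (-0.924). The 78 other ribosomal protein genes ran from 0.268 for Rps13 to 0.918 for Rpl10, with a median of 0.80, against a median of 0.033 over the genes compared.

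Nearest to Rpl3l among 8574 genes were Fam131a (0.991), Tnnc2 (0.986), the iron-sulfur assembly gene Isca1 (0.985), Smco1 (0.985) and Aes, a transcriptional corepressor (0.98). Fam131a had mean normalized counts of 1507, 609 and 1845 in vehicle-treated, semaglutide-treated and semaglutide + ketone ester-treated mice, the same order as Rpl3l over a wider range. Among the most opposed were Nisch (-0.95), Galnt15 (-0.95), Ranbp9 (-0.949) and Sec24b, a coat protein of vesicles leaving the endoplasmic reticulum (-0.947). With the group means removed, r with Rpl3l was 0.984 for Fam131a and 0.969 for Tnnc2. For Dpy19l3, the gene nearest to Rpl3, r with Rpl3 was then 0.654. These genes were picked for their high r in the same mice, so these values are not independent support. The spread of Rpl3l was 1.27% of the mean with vehicle, 20.1% on semaglutide and 8.33% with the ketone ester added. The r values with Rpl3l therefore rest little on vehicle-treated mice, and do not show that mice differed together within each group. All these points share the libraries' scaling and depth, and the correlations are a description.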

How the data were processed

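Gastrocnemius RNA was prepared as stranded mRNA libraries, and the authors aligned paired-end reads to mm10 with DRAGEN; DESeq2 is named in the submitters' processing notes, and the study links general documentation of a DRAGEN release, while the version run, the DESeq2 version and the gene annotation are not given in the sources used here. The deposited signal per gene and mouse is a normalized count, a read count divided by a size factor. All values (100.0%) were whole multiples of 1 step per column within 0.01, so reads were recovered. The 3-read floor and all counting intervals cover counting error only.

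Log2(normalized count + 1) of the 12303 genes with a mean of at least 10 was tested with limma 3.58.1 (all 3 groups, trend) in place of the study's analysis of variance, with Benjamini-Hochberg adjustment over all genes and a threshold of 0.05. Fold changes on this scale understate changes of low genes. Ratios were tested by exact permutation of the absolute difference of group means, adjusted over 9 tests. Mice are the replicates. The limma p-values weigh a difference between groups against the spread between mice, and the permutation p-values come from reassigning mice to groups. In limma that spread is shared over the 3 groups and draws on all genes, although the spread of Rpl3l differed between groups. The code was tested on simulated counts.

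Sequence comparisons used GENCODE M21 (GRCm38, the same assembly as mm10) and Biopython 1.88.

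The members and lists were chosen with earlier results of these data known. Named genes were both members, all measured paralogs and Rpl3-handling genes, Eef1a1, Eef1a2 and Eef2, the 2 highest and 2 lowest fast-muscle and ribosomal protein genes under semaglutide, and the 5 highest and 5 lowest correlations (mean at least 100). Among the lowest correlations, 1 gene for each member is not reported here. Other genes named, such as Tnnc2 as a called gene and the growth list, were named after their values were seen. Alternatives were other pseudocounts, filters, scalings, weights, fits and summaries, and leaving out each mouse. Tests on recovered reads with edgeR 4.0.16 and DESeq2 1.42.0 were added after seeing the data.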

Additional observations from a re-analysis of the deposited data

Results flagged for a closer look

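Of 10 sets of values tested, 1 held a mouse that stood apart from the rest of its group by Dixon's criterion, which chance meets in about 1 of 20 groups. In semaglutide-treated mouse 15, log2 Rpl3 minus the mean of the 78 other ribosomal protein genes was -1.77, against -1.08, -0.89, -0.87 and -1.06 in the other semaglutide-treated mice. Its Rpl3 was 251 normalized counts, the lowest of the group, while its mean log2 level of the other ribosomal protein genes was 9.75, near the highest of the group at 9.77. Without this mouse the difference from vehicle was 0.82 (exact permutation adjusted p = 0.0571) in place of 0.66.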

How the results depend on the processing

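Rpl3 and Rpl3l kept their direction and their call for semaglutide against vehicle and for the ketone ester against semaglutide under 10 other settings and with each of the 13 mice left out. Without single mice, the log2 differences of Rpl3 lay between 1.25 and 1.49 and between -1.46 and -1.08, and those of Rpl3l between -0.57 and -0.37 and between 0.53 and 0.73, with limma adjusted p up to 0.0389. Between the combined treatment and vehicle, where nothing was called, 3 of the 5 differences changed sign under some settings. That of Rpl3 was -0.020 with equal totals and ran from -0.11 to 0.27 without single mice, that of the ratio was -0.057 with group medians and ran from -0.17 to 0.33, and that of Rpl3 relative to other subunits ran from -0.26 to 0.093. The ratio under semaglutide, which missed the adjusted threshold, ran from -2.01 to -1.70 without single mice and passed it without vehicle-treated mouse 2 (exact permutation adjusted p = 0.0357). Rpl3l relative to fast-muscle genes under semaglutide ran from -0.26 to -0.18 and passed without the same mouse (exact permutation adjusted p = 0.0357). With the median of those genes it was -0.81, but the genes at that median differed between the groups. The cause of the other shifts was not tested.

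Genes called under semaglutide numbered 3255, and 4986 with sample weights. With equal totals the split of 1540 higher and 1715 lower became 3351 and 985. For the ketone ester against semaglutide 2546 were called, 4436 with sample weights, 4349 with equal totals (636 higher and 3713 lower, against 1234 and 1312), 1212 with both groups alone, 1265 without mouse 21, 1150 without mouse 22 and 4121 without mouse 13. Against vehicle 45 were called, 318 with sample weights, 265 with both groups alone, 172 with DESeq2, 29 without the trend, 21, 22 and 28 without vehicle-treated mice 1, 2 and 3, 5 and 4 without mice 21 and 22, and 132 without mouse 13. No paired analysis was possible because the groups share no mouse numbers in the labels.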
